A study of Mus musculus with 9 samples.

Results

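The heat shock proteins and chaperonins are the genes whose products fold other proteins, keep them from aggregating or hand them on for import or degradation. Mouse genes were taken whose single symbol in the annotation tables of the 3 array designs starts with Hspa, Hspb, Hspd, Hspe, Hsph or Hsp90, with Dnaja, Dnajb or Dnajc, or with Cct. Apart from Hsp90, a number had to follow, and in the Hsp names letters could stand before it. The rule therefore also took in Hspbp1 and Hspbap1. This gave 78 genes of 15965 with a probe set of a single symbol, and they were represented by 172 probe sets, of which 77 were on design A, 54 on design B and 41 on design C. The rule reads gene names and uses no signal values. The samples were 3 pools of whole mouse embryos at embryonic day 7.5, and total RNA of each pool was read on the 3 Affymetrix designs MG_U74Av2 (A), MG_U74Bv2 (B) and MG_U74Cv2 (C), 1 array per pool and design. In the conditional knockout pool, of about 50 embryos, a Cre recombinase under the cytokeratin 19 promoter was used to delete beta-catenin, and these are called knockout embryos. Embryos of the floxed/deleted pool had 1 floxed and 1 deleted allele of the gene, and those of the wild-type/floxed pool had 1 floxed allele beside a wild-type one. The labels do not say how many embryos the control pools held or whether those embryos carried Cre, so a floxed allele was shared by both controls while the state of Cre in them is not known here. Because each pool was read once per design, no difference between pools has a replicate check, and values, folds and counts are given without a test.

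Signal is the intensity that the authors deposited for a probe set, scaled within a design to equal trimmed means. The floor is the median of all signals of a design, 57.3 on A, 90.0 on B and 80.9 on C, and values below it were set to it before any fold was taken. A gene counted as measured where at least 1 pool lay above the floor, and each gene was read from its brightest probe set. A gene stood apart in a pool where it differed at least 1.5-fold from both other pools, and its fold is then against the nearer of them. Signals of different probe sets do not order their transcripts, so levels are compared between pools only.

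Hsp70 proteins bind exposed hydrophobic stretches of a client in a cycle of ATP binding and hydrolysis. J proteins, the Dnaj genes, bring them clients and stimulate hydrolysis, and nucleotide exchange factors such as the Hsp110 proteins reset them. Hsp90 acts on clients that are nearly folded, small heat shock proteins hold unfolded ones, and the chaperonins, Hsp60 with Hsp10 in mitochondria and CCT in the cytosol, enclose a client in a barrel. Some of these genes are induced by heat through heat shock factors, which bind repeats of the letters GAA in alternating orientation (heat shock elements). Others are induced by misfolded protein in the endoplasmic reticulum (ER) through the ER stress response element, and a further class is expressed without stress in nearly every cell.

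To show the letters by which the inducible classes are known, the bases just before the start site are given for 4 heat inducible genes and 3 ER stress inducible genes. They are RefSeq promoters of build GRCm38.p6, written 5′ to 3′ on the gene's strand. Capitals mark heat shock elements in the first 4 (GAA and TTC in alternation with 2 bases between them) and ER stress elements in the last 3 (CCAAT and CCACG with 9 bases between them, on either strand).
Hspa1a (chr17:34972157-34972306, minus strand): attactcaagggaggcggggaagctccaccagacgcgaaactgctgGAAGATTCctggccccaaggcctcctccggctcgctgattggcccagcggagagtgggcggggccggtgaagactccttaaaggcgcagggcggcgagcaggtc
Hspa1b (chr17:34959239-34959388, minus strand): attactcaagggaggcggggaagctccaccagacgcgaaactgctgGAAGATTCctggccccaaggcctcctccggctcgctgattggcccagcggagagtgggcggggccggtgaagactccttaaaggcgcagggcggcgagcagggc
Hspb1 (chr5:135887769-135887918, plus strand): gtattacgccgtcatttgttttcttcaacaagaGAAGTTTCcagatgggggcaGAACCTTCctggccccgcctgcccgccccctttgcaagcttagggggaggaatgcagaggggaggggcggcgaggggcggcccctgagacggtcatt
Hspe1 (chr1:55087998-55088147, plus strand): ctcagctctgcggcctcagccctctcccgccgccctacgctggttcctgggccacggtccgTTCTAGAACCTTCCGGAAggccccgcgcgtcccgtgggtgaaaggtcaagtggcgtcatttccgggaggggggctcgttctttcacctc
Hspa5 (chr2:34771940-34772089, plus strand): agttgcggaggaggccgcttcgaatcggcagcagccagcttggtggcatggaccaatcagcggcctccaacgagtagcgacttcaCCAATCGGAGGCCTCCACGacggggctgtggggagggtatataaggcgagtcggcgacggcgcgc
Hsp90b1 (chr10:86705445-86705674, minus strand): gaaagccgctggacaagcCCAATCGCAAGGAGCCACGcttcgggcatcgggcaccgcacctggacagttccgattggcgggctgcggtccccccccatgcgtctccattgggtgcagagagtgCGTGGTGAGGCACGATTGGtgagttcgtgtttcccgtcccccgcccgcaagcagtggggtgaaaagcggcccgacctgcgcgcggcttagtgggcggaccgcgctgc
Dnajc3 (chr14:118937782-118937931, plus strand): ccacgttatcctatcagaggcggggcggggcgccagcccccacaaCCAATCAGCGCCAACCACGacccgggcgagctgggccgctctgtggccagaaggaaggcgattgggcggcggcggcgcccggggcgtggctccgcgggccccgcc

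The stretches of Hspa1a and Hspa1b, neighbouring copies of the stress-inducible Hsp70 gene, had 149 of 150 bases in common, and each held 1 match that began 104 bases before the start site. Hspb1 had matches that began 117 and 97 bases before its start. Hspe1 held 3 overlapping matches that began 89, 84 and 79 bases before the start, so that its capitals form 1 run. That run lies between Hspe1 and Hspd1, which encode the mitochondrial co-chaperonin and chaperonin and are read away from each other, and a promoter of Hspd1 and the promoter of Hspe1 shared 285 bases on opposite strands. The ER stress element of Hspa5 began 65 bases before the start and that of Dnajc3 105 bases before it, while Hsp90b1 had 1 at 212 bases and another, on the opposite strand, at 107 bases.

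A promoter of 300 bases, 250 before and 50 after the start, was given for at least 1 start of 65 of the 78 members. The short heat shock element (both strands, overlaps counted) was in a promoter of 8 of the 9 matched heat inducible members, against 17.0% of all 27025 genes, or 15.1% of 32851 promoters. Dnajb1 had no match in these windows. The longer form with 3 alternating units, which contains the short form, was in 3 of the 9 (Hspd1, Hspe1 and Hsph1), against 0.662% of all genes and 0.603% of promoters. Of 11 matched constitutive members, 4 held the short form (Cct2, Cct5, Cct6a and Dnajb6), and Dnajb6 also held the long form. The ER stress element was in 3 of 5 ER stress inducible members and in no other member, against 0.137% of all genes and 0.119% of promoters. Dnajb9 and Dnajb11 had no match to these letters. A match is a description of the letters, and no binding was measured.

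**Figure D1:**
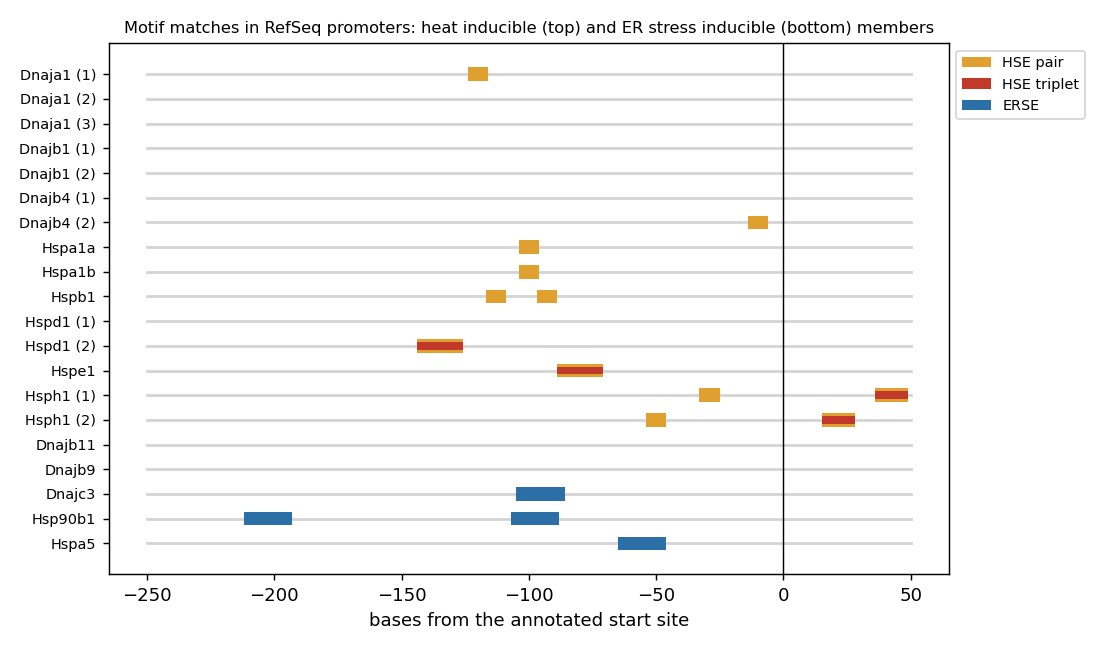
Motif matches along RefSeq promoters of the heat inducible members (upper rows) and the ER stress inducible members (lower rows), in bases from the annotated start site, with 1 grey line per promoter of 300 bases and a number in brackets where a gene has several. Yellow boxes are short heat shock elements, red boxes the longer form and blue boxes ER stress elements; the ER stress element appears in Dnajc3, Hsp90b1 and Hspa5, and the longer heat shock element in Hspd1, Hspe1 and Hsph1.

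Of the 78 members, 70 were measured and 52 lay above the floor in all 3 pools. The 8 members below the floor in every pool were Dnajb5, Dnajb7, Dnajb9, Hspa1a, Hspa1b, Hspb1, Hspb11 and Hspb6. For 39 members the brightest probe set was on design A, for 21 on design B and for 18 on design C. For 33 members there was 1 probe set, and the most was 7, for Dnajc3.

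Among the 10 heat inducible members, Hspa1a, Hspa1b and Hspb1 were below the floor in every pool, 5 lay above it in every pool and within 1.5-fold between pools, and Hsp90aa1 and Dnajb4 are described on their own. Hspa1a, the stress-inducible Hsp70, gave a signal of 27.6 in knockout embryos, 18.4 in floxed/deleted embryos and 21.5 in wild-type/floxed embryos, and its other probe set read 4.2, 24.4 and 12.6 in the same order of pools. Hspa1b read 18.6 in knockout embryos, 24.5 in floxed/deleted embryos and 42.4 in wild-type/floxed embryos. Hspb1, a small heat shock protein that binds unfolded clients and affects actin filaments, read 62.2, 9.0 and 58.9 in these pools. All of these values were below the floors of their designs, so no order between the pools can be read from them. Hspa1a and Hspa1b are near-identical copies, so their probe sets may share signal. A signal below the floor does not show that a transcript was absent: Calr, an abundant ER chaperone outside the member rule, also read 6.9 in knockout embryos, 15.2 in floxed/deleted embryos and 29.8 in wild-type/floxed embryos.

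Dnajb1, the Hsp40 co-chaperone of inducible Hsp70, read 310.3 in knockout embryos, 271 in floxed/deleted embryos and 253 in wild-type/floxed embryos. Its other probe set, on design A, read 194, 224 and 200.2 in the same pools, so the pool that was highest differed between the probe sets. Hsph1, an Hsp110 exchange factor, read 827 in knockout embryos, 774 in floxed/deleted embryos and 849 in wild-type/floxed embryos. Dnaja1, another Hsp40, read 428 in knockout embryos, 428 in floxed/deleted embryos and 506 in wild-type/floxed embryos. Each of these genes lay within 1.5-fold between every pair of pools on its brightest probe set. Dnajb4, also an Hsp40, read 14.4 in knockout embryos and 31.2 in floxed/deleted embryos, both below the floor, and 101 in wild-type/floxed embryos.

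The mitochondrial chaperonin pair, which shares the promoter shown above, was even across pools. Hspd1 (Hsp60) read 2417 in knockout embryos, 2147 in floxed/deleted embryos and 2577 in wild-type/floxed embryos. Hspe1 (Hsp10) read 1352 in knockout embryos, 1256 in floxed/deleted embryos and 1330.4 in wild-type/floxed embryos. For both genes the floxed/deleted pool was lowest, and the widest gap between pools was 1.20-fold for Hspd1. A second probe set of Hspd1 had another order, at 125 in knockout embryos, 109 in floxed/deleted embryos and 91.7 in wild-type/floxed embryos.

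Hsp90aa1, the stress-inducible cytosolic Hsp90, differed more between the controls than either control differed from the knockout. It read 4964 in knockout embryos, 3448 in floxed/deleted embryos and 6377 in wild-type/floxed embryos. The conditional knockout pool was 1.44-fold higher than the floxed/deleted pool and 1.28-fold lower than the wild-type/floxed pool, and the floxed/deleted pool was 1.85-fold lower than the wild-type/floxed pool. On the log2 scale the last difference was -0.89, where the differences of all 7490 measured probe sets of design A between the controls had an SD of 0.436. The other 2 probe sets of Hsp90aa1 were below the floor in every pool.

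**Figure D2:**
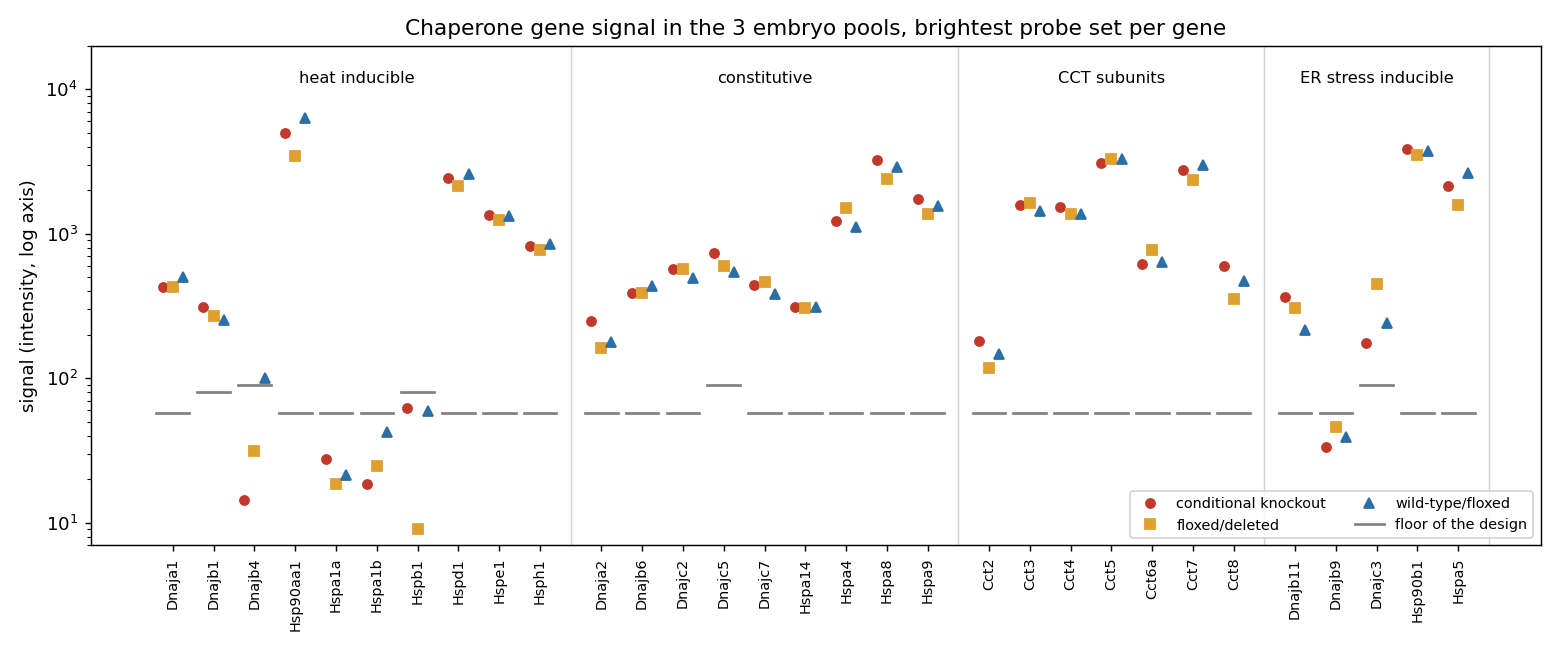
Signal (intensity, log axis) of the heat inducible, constitutive, CCT and ER stress inducible members in the 3 pools, from the brightest probe set of each gene, with 1 array per point. Circles are the conditional knockout pool, squares the floxed/deleted pool and triangles the wild-type/floxed pool, and grey bars are the floor of the design; Hspa1a, Hspa1b, Hspb1 and Dnajb9 lie below their floors, and Hsp90aa1 and Hspa5 are lowest in floxed/deleted embryos and highest in wild-type/floxed embryos.

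The constitutive members were all above the floor in every pool, and 13 of 16 lay within 1.5-fold between every pair of pools (81.3%), against 4667 of 7975 genes of all kinds above the floor in all pools (58.5%). All members together gave 28 of 52 (53.8%). Members read on design A gave 21 of 30, against 2434 of 3321 genes of all kinds on that design (73.3%), and all but 1 of the constitutive members were read there. Hspa8, the cognate Hsp70 of the cytosol, read 3227 in knockout embryos, 2406 in floxed/deleted embryos and 2898 in wild-type/floxed embryos. Hspa4, an Hsp110 exchange factor, read 1219 in knockout embryos, 1502 in floxed/deleted embryos and 1112 in wild-type/floxed embryos. Hspa9 (mortalin), the Hsp70 of the mitochondrial matrix that drives protein import, read 1752 in knockout embryos, 1365 in floxed/deleted embryos and 1569.8 in wild-type/floxed embryos. On these probe sets, Hspa8 and Hspa9 were highest in knockout embryos and lowest in floxed/deleted embryos, Hspa4 was highest in floxed/deleted embryos, and none of them stood apart. Other probe sets of Hspa4 and Hspa9 differed. Hspa4 was highest in wild-type/floxed embryos on another probe set, which read 1056 in knockout embryos, 1201 in floxed/deleted embryos and 1308 in wild-type/floxed embryos. On the remaining 2 above the floor in all pools it was highest in knockout embryos, with 418 and 195 there, 404 and 94.6 in floxed/deleted embryos and 359 and 145 in wild-type/floxed embryos. A second probe set of Hspa9, on design C, read 230.3 in knockout embryos, 132 in floxed/deleted embryos and 125 in wild-type/floxed embryos, and stood apart as 1.75-fold higher in knockout embryos.

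Hspa14 and Dnajc2 encode the Hsp70 and J protein that sit together on the ribosome. Hspa14 was nearly equal on its brightest probe set, at 310.0 in knockout embryos, 308 in floxed/deleted embryos and 309.9 in wild-type/floxed embryos, while a second on design C read 118 in knockout embryos, 96.8 in floxed/deleted embryos and 56.5 in wild-type/floxed embryos. Dnajc2 read 572 in knockout embryos, 569 in floxed/deleted embryos and 491 in wild-type/floxed embryos. Among the other constitutive J proteins, Dnaja2, an Hsp40 of the cytosol, had the widest gap: 247 in knockout embryos, 162 in floxed/deleted embryos and 179 in wild-type/floxed embryos, 1.38-fold above the nearer control. Dnajb6, which keeps clients from aggregating, read 388 in knockout embryos, 391 in floxed/deleted embryos and 435 in wild-type/floxed embryos on its brightest probe set. Another, on design C, read 185 in knockout embryos, 33.5 in floxed/deleted embryos and 19.9 in wild-type/floxed embryos, both controls being below the floor, and was at least 2.29-fold higher in knockout embryos. Dnajc7, which binds both Hsp70 and Hsp90, read 444 in knockout embryos, 467 in floxed/deleted embryos and 380.5 in wild-type/floxed embryos. Dnajc5, the cysteine string protein of secretory vesicles, was highest in knockout embryos, at 736, against 596 in floxed/deleted embryos and 544 in wild-type/floxed embryos. Its other 3 probe sets with all values above the floor were also highest there, and the gap to the nearer control was 1.23-fold on the brightest.

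CCT folds actin and tubulin, and 7 of its subunits were members, while Tcp1, the subunit whose name lies outside the rule, is given with the related genes. Their median difference between the conditional knockout pool and the mean of both controls was 0.06 on the log2 scale (0.40 without probe sets of a shared suffix and 0.16 against the floxed/deleted pool alone), and between the floxed/deleted pool and the wild-type/floxed pool -0.001. Cct5 read 3114 in knockout embryos, 3299 in floxed/deleted embryos and 3275 in wild-type/floxed embryos, and its second probe set read 289, 211 and 251 in the same pools. Cct7 read 2775 in knockout embryos, 2367 in floxed/deleted embryos and 2991 in wild-type/floxed embryos. On their brightest probe sets, the subunits of the ring did not share an order of pools: the conditional knockout pool was above both controls for 3 of 7, below both for 2 and between them for 2. Cct8 had the widest gap, at 596 in knockout embryos, 352 in floxed/deleted embryos and 468 in wild-type/floxed embryos, 1.27-fold above the nearer control. Cct2 had the same order, at 179.7 in knockout embryos, 119 in floxed/deleted embryos and 148 in wild-type/floxed embryos. For Cct3 the brightest probe set read 1585 in knockout embryos, 1641 in floxed/deleted embryos and 1444 in wild-type/floxed embryos. The next probe set of Cct3 on the same design read 1404, 999 and 1137 in these pools, so the floxed/deleted pool was highest on 1 and lowest on the other. Cct4 read 1540.0 in knockout embryos, 1375 in floxed/deleted embryos and 1376 in wild-type/floxed embryos, and Cct6a read 618, 769 and 641 in the same pools. Second probe sets of both genes went the other way: that of Cct4 read 163 in knockout embryos, 225 in floxed/deleted embryos and 232 in wild-type/floxed embryos, and that of Cct6a 121, 48.7 and 16.8 in these pools, above the floor in knockout embryos only.

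In the ER, the 5 stress inducible members did not move together. Hspa5 (BiP), the Hsp70 of the ER, read 2144 in knockout embryos, 1594 in floxed/deleted embryos and 2623 in wild-type/floxed embryos. As for Hsp90aa1, the wider difference was between the controls: the floxed/deleted pool was 1.65-fold lower than the wild-type/floxed pool, and the conditional knockout pool lay between them. Hsp90b1 (Grp94), the Hsp90 of the ER, was even, at 3849 in knockout embryos, 3492 in floxed/deleted embryos and 3764 in wild-type/floxed embryos. Dnajb11, a soluble J protein that delivers clients to Hspa5, read 366 in knockout embryos, 305 in floxed/deleted embryos and 215 in wild-type/floxed embryos. Its log2 difference between the conditional knockout pool and the mean of both controls was 0.51, but the gap to the nearer control was 1.20-fold. Dnajb9, a J protein of the ER that is induced by misfolded protein, was below the floor in every pool.

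Dnajc3, an ER J protein also known as an inhibitor of the kinase Perk, read 175 in knockout embryos, 451 in floxed/deleted embryos and 240.2 in wild-type/floxed embryos on its brightest probe set, and so stood apart as higher in floxed/deleted embryos, by 1.88-fold. Its other probe sets above the floor in all pools were highest in knockout embryos instead. They read 148 and 133 in knockout embryos, 92.4 and 92.1 in floxed/deleted embryos, and 111 and 85.6 in wild-type/floxed embryos. The direction of Dnajc3 therefore depended on the probe set. The 3 genes with an ER stress element in the window shown above, Hspa5, Hsp90b1 and Dnajc3, did not share an order of pools.

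By class, the median log2 difference between the conditional knockout pool and the mean of both controls was 0.04 for the 7 measured heat inducible members, 0.08 for 4 ER stress inducible members and 0.10 for 16 constitutive members. These values depended on the control: against the wild-type/floxed pool alone the heat inducible median was -0.0928 and the ER stress inducible one -0.13. The median was 0.05 for all 70 measured members and -0.02 for all 12388 measured genes. The heat inducible members ran from -0.12 to 0.24, and 2 of 7 lay above both controls in knockout embryos. Between the floxed/deleted pool and the wild-type/floxed pool, the heat inducible members had a median of -0.16, with 6 of 7 lower in floxed/deleted embryos. The constitutive members had a median of -0.005 with 9 of 16 lower, and all genes a median of 0.00 with 5823 lower and 5944 higher. By compartment, the median between the conditional knockout pool and the controls was 0.005 for 27 measured members of the cytosol other than CCT, 0.02 for 12 of the ER and 0.16 for 8 of the mitochondrion. On design A alone it was 0.0518 for mitochondrial members and 0.30 for ER stress inducible members, and against the wild-type/floxed pool alone 0.13 for the cytosol and 0.21 for the ER. The same classes had medians of 0.00, 0.16 and -0.14 between the floxed/deleted pool and the wild-type/floxed pool. The SD over single members was 0.571 between the conditional knockout pool and the controls, beside 0.549 over all genes. It was 0.119 over the heat inducible members, most of them read on design A, where it was 0.390 over all genes. The pools held mixed cells, so fewer cells of a type and less RNA per cell cannot be told apart.

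**Figure D3:**
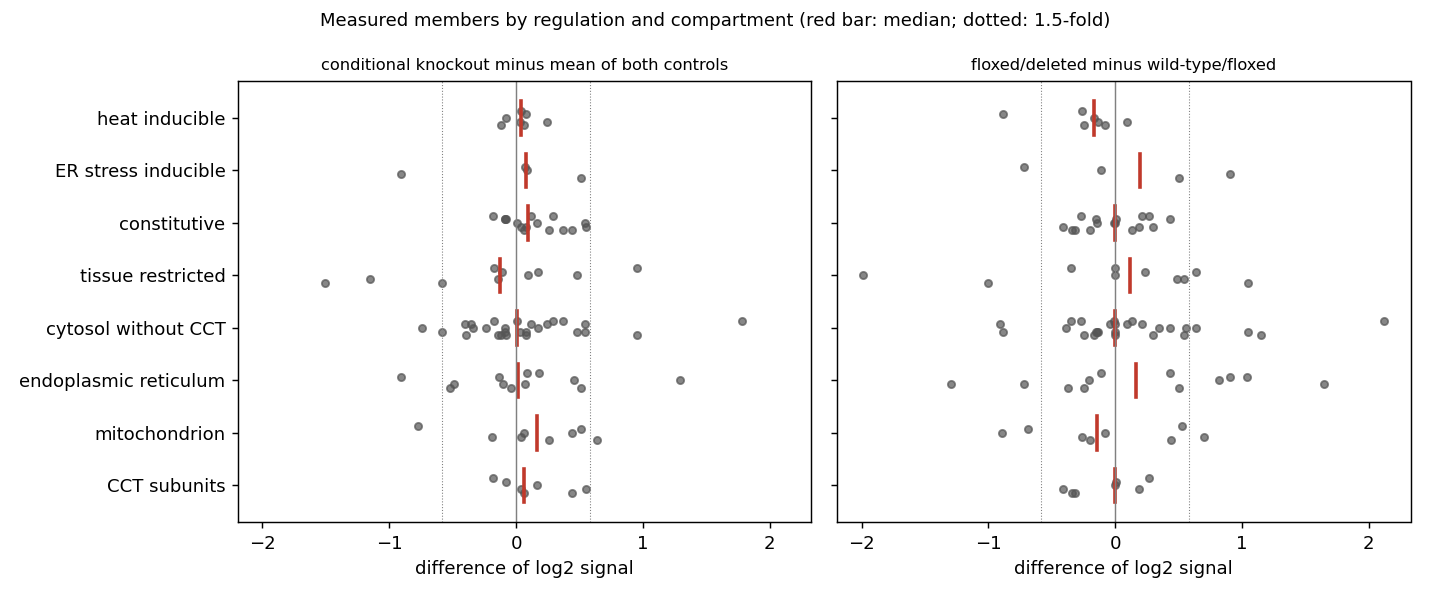
Difference of log2 signal for each measured member (grey points) by class of regulation and by compartment, between the conditional knockout pool and the mean of both controls (left) and between the floxed/deleted pool and the wild-type/floxed pool (right). Red bars are medians and dotted lines 1.5-fold; the heat inducible and constitutive members lie inside the dotted lines on the left, and Hsp90aa1 is the heat inducible member outside them on the right.

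In mitochondria, Hspd1, Hspe1 and Hspa9 were close to even on their brightest probe sets, and the J proteins spread more widely. Dnaja3 and Dnajc11 are named here to complete the class, a choice made after their values were seen. Dnaja3 (Tid1), which works with Hspa9, read 325 in knockout embryos, 243 in floxed/deleted embryos and 179 in wild-type/floxed embryos, 1.34-fold above the nearer control. Dnajc11, a J protein of the cristae-organising machinery, read 157 in knockout embryos, 229 in floxed/deleted embryos and 141 in wild-type/floxed embryos. Dnajc30 read 422 in knockout embryos, 867 in floxed/deleted embryos and 603 in wild-type/floxed embryos. Dnajc15, a J protein of the inner membrane, read 379 in knockout embryos, 205 in floxed/deleted embryos and 380.4 in wild-type/floxed embryos on its brightest probe set, lowest in floxed/deleted embryos. On its other probe set, the values were 118 in knockout embryos, 115 in floxed/deleted embryos and 149.9 in wild-type/floxed embryos, within 1.5-fold of each other. Dnajc28 read 147 in knockout embryos, 15.4 in floxed/deleted embryos, where it was below the floor, and 130.2 in wild-type/floxed embryos.

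In single pools, the share of chaperone genes that stood apart was near that of genes of all kinds. It was below that share except among genes higher in wild-type/floxed embryos. Taking any of the 3 pools, it was 25.7%, against 34.5% of all genes. In the conditional knockout pool, 4 of 70 exceeded both controls by 1.5-fold or more, or 5.71%, where the background was 6.51% of 12388 genes. Lower than both controls were 3 of 70, or 4.29%, with a background of 5.8%. With arrays scaled to equal medians the backgrounds in the conditional knockout pool were 8.09% higher and 4.67% lower. In the floxed/deleted pool, 5 were higher than both other pools (background 7.5%) and 3 lower (background 5.61%). In the wild-type/floxed pool, 5 were higher (background 6.58%) and 3 lower (background 5.63%). Among the 52 members above the floor in all pools, 1 was higher in knockout embryos (background 4.31%) and 0 were lower (background 5.32%). Of the same 52, 4 were higher in floxed/deleted embryos (background 3.76%) and 1 lower (background 5.22%). In wild-type/floxed embryos 1 of them was higher (background 3.61%) and 3 were lower (background 4.79%). Between the controls alone, 9 of 70 members were at least 1.5-fold higher in floxed/deleted embryos and 9 lower, 12.9% each, with backgrounds of 14.8% and 13.9%. Over the 70 measured members, each control thus stood apart for about as many as the conditional knockout pool did. Among the 52 above the floor in all pools, the conditional knockout pool stood apart for fewer members than either control.

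**Figure D4:**
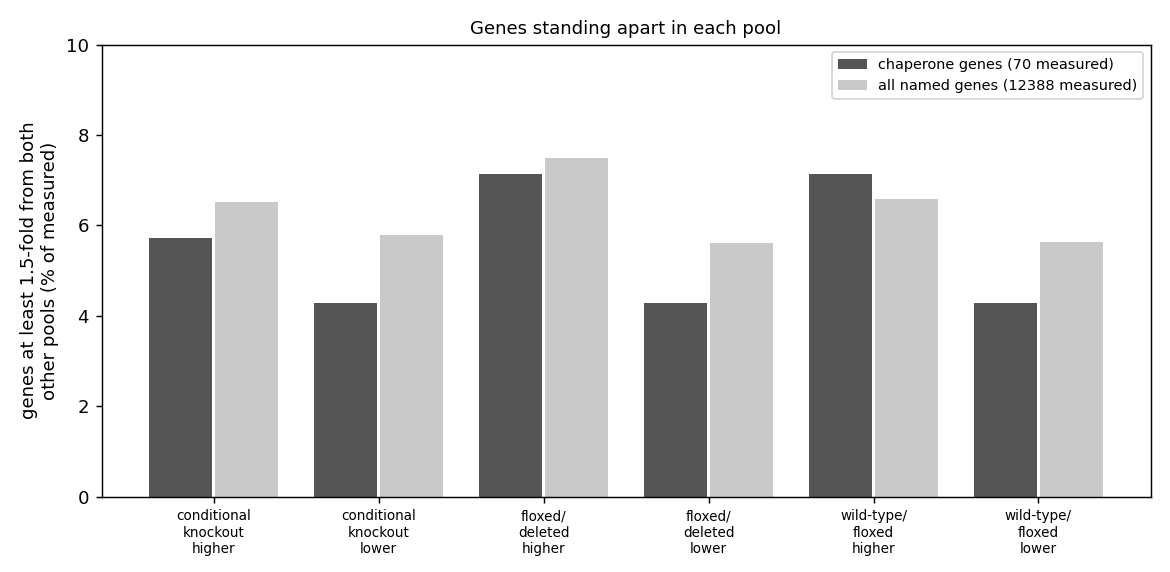
Percent of measured genes at least 1.5-fold higher or lower in 1 pool than in both other pools, for 70 chaperone genes (dark bars) and 12388 named genes (light bars). The dark bars run from 4.29% to 7.14% and the light bars from 5.61% to 7.5%.

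Checks of the pools bear on all of these values. Ctnnb1, the beta-catenin gene, read 1376 in knockout embryos, 1509 in floxed/deleted embryos and 1773 in wild-type/floxed embryos, and whether its probes lie in the deleted part is not known here. Krt19, whose promoter drove Cre, read 232 in knockout embryos, 97.6 in floxed/deleted embryos and 119 in wild-type/floxed embryos. Of 14 visceral endoderm markers, 6 exceeded both controls by 1.5-fold or more in knockout embryos and 0 were lower. Over all measured genes, 6.51% were higher by this measure and 5.8% lower. The summed signal of the 14 markers was 41879.9 in knockout embryos, against 20959 in floxed/deleted embryos and 23829 in wild-type/floxed embryos. Apoa1, an apolipoprotein of that tissue, read 16067 in knockout embryos, 7336 in floxed/deleted embryos and 6813 in wild-type/floxed embryos. Apoa1 and Amn, which read 12922, 6390 and 8806 in these pools, made most of the sum. Of the 12 markers above the floor in all pools, 5 lay within 1.5-fold between every pair of pools, such as Hnf4a, Lrp2 and Ttr. Of 5 measured markers of maternal decidua and immune cells, 3 were higher and 0 lower, with sums over the 10 genes found of 893 in knockout embryos, 514 in floxed/deleted embryos and 296 in wild-type/floxed embryos. The largest part of these sums was Laptm5, on a probe set of design C, at 446, 271 and 109 in these pools. For C1qb and Des, also higher, both controls lay at or below the floor. The other 5 genes found were below the floor in every pool. Of 4 measured blood markers, 0 were higher and 0 lower. The ratio of signal at the 5′ end to that at the 3′ end of Actb, a sign of RNA quality, was 0.570 to 0.613 in knockout embryos over the 3 designs, against 0.655 to 0.698 in floxed/deleted embryos and 0.681 to 0.730 in wild-type/floxed embryos. The same ratio of Gapdh did not set the knockout pool apart: it was 1.09 on design A, 0.919 on B and 0.878 on C in knockout embryos, against 1.07, 0.900 and 0.912 in floxed/deleted embryos and 1.15, 1.02 and 0.825 in wild-type/floxed embryos. The part of these differences in the values of the chaperone genes was not tested.

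The array design went with standing apart. In any of the 3 pools, 18 of 70 members stood apart (25.7%), against 34.5% of all genes. By design, these were 2 of 34 members on A (5.88%, against 17.3% of all genes there), 7 of 19 on B (36.8%, against 32.5%) and 9 of 17 on C (52.9%, against 59.3%). The SD of the log2 difference between the floxed/deleted pool and the wild-type/floxed pool over measured probe sets of all genes was 0.436 for design A, 0.588 for design B and 0.884 for design C.

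Of the 4 members higher in knockout embryos, Dnajb2, a J protein enriched in neurons, was above the floor in all pools. It read 669.7 in knockout embryos, 406 in floxed/deleted embryos and 93.2 in wild-type/floxed embryos, 1.65-fold above the nearer control, and the controls differed from each other by 4.36-fold. That probe set, on design C, carries the suffix i, which is among those grouped here as shared suffixes. The other measured probe set of Dnajb2 read 78.6 in knockout embryos, 45.0 in floxed/deleted embryos and 116 in wild-type/floxed embryos, another order of pools. Its remaining probe sets were below the floor in every pool. The one without such a suffix, on design A, read 26.8 in knockout embryos, 9.3 in floxed/deleted embryos and 20.3 in wild-type/floxed embryos. Dnajb14, a J protein of the ER membrane, read 237 in knockout embryos, 56.0 in floxed/deleted embryos and 104 in wild-type/floxed embryos, 2.28-fold above the nearer control. Its 3 other measured probe sets each had a value above the floor in 1 pool only, a different pool for each. Cct8l1, named for its likeness to a CCT subunit, read 149 in knockout embryos, 76.7 in floxed/deleted embryos and 67.1 in wild-type/floxed embryos, at least 1.84-fold higher. Hspa1l, a testis-enriched Hsp70 beside Hspa1a and Hspa1b, read 111.0 in knockout embryos, 12.1 in floxed/deleted embryos and 53.0 in wild-type/floxed embryos, at least 1.94-fold higher. Both controls were below the floor for Cct8l1 and Hspa1l, and each of these genes was read by 1 probe set.

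The 3 members lower in knockout embryos were all below the floor there. Dnajc21, a J protein known in human cells and yeast for maturation of the large ribosomal subunit, read 33.9 in knockout embryos, 240.3 in floxed/deleted embryos and 478 in wild-type/floxed embryos, at least 2.97-fold lower. Its other 3 probe sets were uneven: on design A it read 66.1 in knockout embryos, 119 in floxed/deleted embryos and 88.3 in wild-type/floxed embryos, and on design B 109, 71.1 and 153 in the same pools. The remaining one, on design C, read 33.3 in knockout embryos, 305 in floxed/deleted embryos and 71.4 in wild-type/floxed embryos. On that probe set the knockout and wild-type/floxed values were both below the floor and have no order. The conditional knockout pool was therefore lowest on 2 of the 4 probe sets, and between the controls on design B. Dnajb13, an axonemal J protein of sperm and cilia, read 21.7 in knockout embryos, 150.3 in floxed/deleted embryos and 107 in wild-type/floxed embryos, at least 1.87-fold lower. The other probe sets of Dnajb13 were below the floor in every pool. Cct6b, the testis form of the CCT subunit, read 48.5 in knockout embryos, 163 in floxed/deleted embryos and 327 in wild-type/floxed embryos, at least 2.01-fold lower. The other probe set of Cct6b, on design A, read 34.8, 56.7 and 61.4 in these pools. Only the last value was above the floor, so the conditional knockout pool did not stand apart on it.

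The controls had members of their own that stood apart. Higher in floxed/deleted embryos, beside Dnajc3, were Hspbp1, Hspa2, Dnajb12 and Dnajc1. Hspbp1, an exchange factor of Hsp70, read 315 in knockout embryos, 615 in floxed/deleted embryos and 278 in wild-type/floxed embryos on its brightest probe set. Another probe set of Hspbp1 kept that order with a smaller gap, at 354 in knockout embryos, 422 in floxed/deleted embryos and 301 in wild-type/floxed embryos, and the remaining one was highest in knockout embryos, at 291, against 268 in floxed/deleted embryos and 264 in wild-type/floxed embryos. Hspa2, a testis-enriched Hsp70, read 97.5 in knockout embryos, 210.0 in floxed/deleted embryos and 102 in wild-type/floxed embryos. The other probe set of Hspa2 was below the floor in every pool. Dnajb12, which resembles Dnajb14 and sits in the ER membrane, read 223 in knockout embryos, 424 in floxed/deleted embryos and 135 in wild-type/floxed embryos. Its second probe set kept that order, at 221 in knockout embryos, 295 in floxed/deleted embryos and 163 in wild-type/floxed embryos. Dnajc1, a J protein of the ER membrane, read 117 in knockout embryos, 185 in floxed/deleted embryos and 69.0 in wild-type/floxed embryos. Lower in floxed/deleted embryos were Dnajb3, a testis J protein, with Dnajc15 and Dnajc28. Dnajb3 read 172 in knockout embryos, 57.1 in floxed/deleted embryos and 321 in wild-type/floxed embryos, so it also stood apart as higher in wild-type/floxed embryos. Another probe set of Dnajb3, on design A, read 15.3, 58.0 and 43.2 in these pools, above the floor in floxed/deleted embryos only. The remaining one was below the floor in every pool.

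The other members higher in wild-type/floxed embryos were Hspa12b, Dnajc18, Cct6b and Dnajc21. Hspa12b, a divergent Hsp70 known from endothelial cells, read 121 in knockout embryos, 113 in floxed/deleted embryos and 212 in wild-type/floxed embryos, 1.75-fold above the nearer pool. Dnajc18 read 100.5 in knockout embryos, 49.0 in floxed/deleted embryos and 221 in wild-type/floxed embryos. Lower in wild-type/floxed embryos were Dnajb2, Dnajb12 and Dnajc25, and Dnajc25 read 722 in knockout embryos, 699.8 in floxed/deleted embryos and 396 in wild-type/floxed embryos. A second probe set of Dnajc25 read 104 in knockout embryos, 86.8 in floxed/deleted embryos and 92.3 in wild-type/floxed embryos, so wild-type/floxed embryos were not lowest there.

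The remaining members did not stand apart on their brightest probe sets, and Dnajc8, Hspa13, Hspbap1 and Dnajb8 are given as examples. Dnajc8, a J protein tied to splicing, read 2226 in knockout embryos, 2220.0 in floxed/deleted embryos and 2258 in wild-type/floxed embryos. Hspa13, an Hsp70 of the ER, read 1124 in knockout embryos, 1058 in floxed/deleted embryos and 1255 in wild-type/floxed embryos on its brightest probe set. Of its others, 2 on design C were above the floor in knockout embryos only, at 127 and 133. The one on design B with all values above the floor was lowest in floxed/deleted embryos, at 242 in knockout embryos, 123 in floxed/deleted embryos and 200 in wild-type/floxed embryos. Another on design C was highest in floxed/deleted embryos, at 112, 201 and 30.8 in the same pools, the last below the floor. Hspbap1, named for binding Hspb1, read 1374 in knockout embryos, 1297 in floxed/deleted embryos and 878 in wild-type/floxed embryos. Dnajb8, a testis J protein, read 974 in knockout embryos, 1143 in floxed/deleted embryos and 969 in wild-type/floxed embryos, and its other probe set was below the floor in every pool. Among the 52 members above the floor in all pools, the highest value was in knockout embryos for 20, in floxed/deleted embryos for 18 and in wild-type/floxed embryos for 14. The lowest was in knockout embryos for 12, in floxed/deleted embryos for 22 and in wild-type/floxed embryos for 18.

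Probe sets of the same gene often disagreed on direction. Beside the brightest, 53 further probe sets of 33 members were measured, and 26 of them lay on the same side of 0 as the brightest in the difference between the conditional knockout pool and the mean of both controls. Of the 27 with all values above the floor on both probe sets, 12 lay on the same side. The same counts were not made over all genes, so how usual such disagreement is on these arrays is not known here. Some differences were near 0, where the side says little, such as -0.005 for a probe set of Cct3 and -0.009 for the brightest of Dnajc8. Of the 53, 4 exceeded both controls by 1.5-fold or more in knockout embryos and 0 were lower. These were 2 of Hspa13 and 1 each of Hspa9 and Dnajb6, all on design C. For those of Hspa13 and Dnajb6, both controls were below the floor. The share over further probe sets of all genes was not counted, so nothing particular to chaperone genes can be read from this. On their brightest probe sets, 59.3% of all genes on design C stood apart in some pool. Of all member probe sets, 49 carry a suffix f, g, i, r or s in their name, and 18 members were read from one of these. These suffixes are grouped here as shared suffixes, although not all of them mark probes shared with other transcripts.

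**Figure D5:**
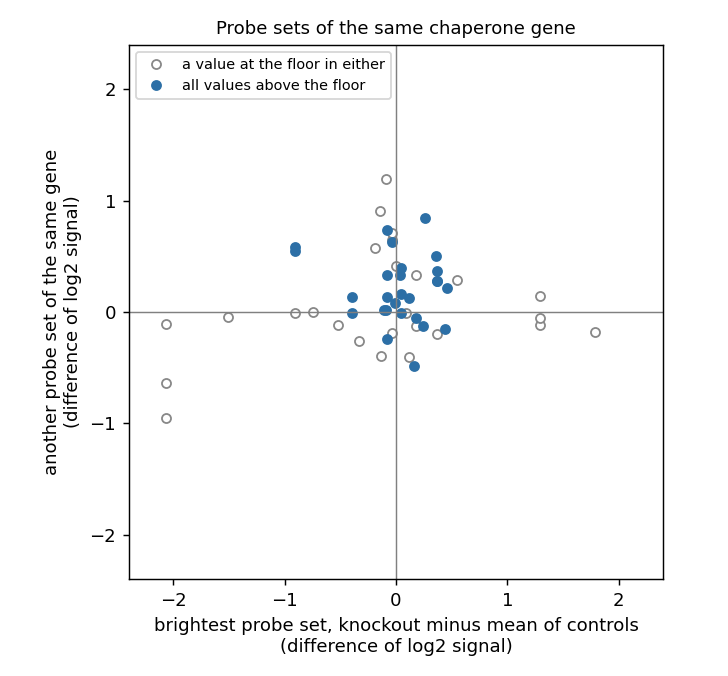
Difference of log2 signal between the conditional knockout pool and the mean of both controls for the brightest probe set of a member (horizontal axis) and for another measured probe set of the same gene (vertical axis). Filled points have all values above the floor; 12 of these 27 points lie on the same side of 0 on both axes.

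Genes that work with the members were also read from lists. Over all measured genes, 6.51% exceeded both controls by 1.5-fold or more in knockout embryos and 5.8% were lower. Of 18 measured heat shock factors and cytosolic co-chaperones, 0 were higher by this measure and 2 were lower. These were Hsf2, a heat shock factor, at 57.7 in knockout embryos, 195 in floxed/deleted embryos and 189 in wild-type/floxed embryos, and St13, a co-chaperone of Hsp70, at 326, 547 and 542 in the same pools. The knockout value of Hsf2 was below the floor. Hsf1 was not analysed here. Of 10 partners of CCT, 1 was higher, Pfdn6, a subunit of the prefoldin complex that passes clients to CCT, at 979 in knockout embryos, 469.7 in floxed/deleted embryos and 468 in wild-type/floxed embryos. Tcp1, the remaining subunit of the ring, read 250.3 in knockout embryos, 147 in floxed/deleted embryos and 248 in wild-type/floxed embryos.

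Of 21 measured genes of ER folding and the unfolded protein response, 0 were higher and 2 lower in knockout embryos, beside 6.51% and 5.8% of all genes. Sdf2l1, a partner of Hspa5, read 254 in knockout embryos, 436 in floxed/deleted embryos and 391 in wild-type/floxed embryos. Canx, the membrane chaperone of glycoproteins, read 13.3 in knockout embryos, 124 in floxed/deleted embryos and 155 in wild-type/floxed embryos. The knockout value of Canx was below the floor, and its probe set carries the suffix r, among those grouped here as shared suffixes. None of 11 other mitochondrial chaperones and proteases stood apart in knockout embryos, and Trap1 was not analysed here. The lists had medians between the conditional knockout pool and the controls of 0.03 for co-chaperones, 0.02 for CCT partners, -0.05 for ER folding and 0.08 for mitochondria, beside -0.02 for all genes.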

How the data were processed

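Total RNA of 3 embryo pools was hybridised to 3 array designs, 9 arrays in all. The values used are the signal intensities deposited by the authors, 1 per probe set, all at or above 0 on a linear scale; how probes were summarised and the scaling target are not given in the sources used here. Arrays of a design were brought to a common trimmed mean, leaving out the lowest and highest 2%, which changed little because the deposited trimmed means already lay between 150.03 and 150.10. Values were set to the floor (the median of the design) and log2 was taken. Of 36899 probe sets, 29197 have 1 gene symbol in the platform annotation, 724 have several and 6978 none, and only the first were named; all 78 member symbols matched the RefSeq gene table. Each gene was read from the probe set with the highest mean signal. Folds and differences between pools were taken within a design. The choice of the brightest probe set and the sums of marker signal ran over all designs. With 1 array per pool and design, no test was made, and the number of arrays limits the precision; depth has no meaning for arrays.

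Classes of regulation and compartment came from textbook knowledge; the members and lists were chosen with earlier results of these data known. Named were the heat inducible, ER stress inducible, constitutive and CCT members, of the others those that stood apart in any pool and the 5 brightest, and of related genes up to 4 per list that stood apart together with the gene each list is best known for. Counting was tested on simulated data. Python 3.11.15 with numpy 2.4.6 and pandas 2.3.3 was used, and matplotlib 3.10.9 for figures. The alternatives tried were other floors, folds, scalings and probe set rules, each control alone, and design A alone.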

Additional observations from a re-analysis of the deposited data

How the results depend on the processing

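The median difference between the conditional knockout pool and the controls over all members ran from 0.005 to 0.14 on the log2 scale over 10 alternatives, and moved by less than 0.1 in each; the medians of heat inducible, ER stress inducible, cytosolic and ER members took either sign over the alternatives. The counts of members standing apart, given as higher then lower, were 4 and 3 in knockout embryos, 5 and 3 in floxed/deleted embryos and 5 and 3 in wild-type/floxed embryos, and they depended on the settings. The share of all genes at the same setting stands in brackets in the same order. Counts left out at a setting lay within 1.5-fold of the counts above, and medians left out moved by less than 0.1. With 52 members above the floor in all pools, an alternative added after seeing the data, 1 was higher and 0 lower in knockout embryos (4.31% and 5.32%). There, 4 were higher and 1 lower in floxed/deleted embryos (3.76% and 5.22%), and 1 higher and 3 lower in wild-type/floxed embryos (3.61% and 4.79%). On design A alone, with 45 members, the counts were 1 and 1 in knockout embryos (3.51% and 3.52%), 1 and 0 in floxed/deleted embryos (3.52% and 2.57%) and 0 and 1 in wild-type/floxed embryos (2.61% and 2.85%); the medians were 0.0518 for mitochondrial, 0.13 for ER and 0.30 for ER stress inducible members. When the floor was the 30th percentile, with 78 members, 8 were lower in floxed/deleted embryos (8.8%), and 8 higher and 7 lower in wild-type/floxed embryos (9.55% and 9.27%). At the 70th percentile, with 59 members, knockout embryos had 1 and 0 (4.51% and 3.3%), floxed/deleted embryos 3 and 1 (3.87% and 3.29%) and wild-type/floxed embryos 3 higher (3.67%). With no floor and 78 members, 7 were lower in knockout embryos (14.5%), 9 lower in floxed/deleted embryos (12.2%), and 8 higher and 7 lower in wild-type/floxed embryos (10.9% and 12.9%). At the lower fold threshold, knockout embryos had 10 and 8 (14.3% and 11.5%), floxed/deleted embryos 13 and 7 (15.3% and 11.5%) and wild-type/floxed embryos 9 and 10 (13.3% and 11.3%). At 2-fold, 1 was higher in knockout embryos (2.08%), with 1 and 1 in floxed/deleted embryos (2.55% and 1.79%) and 2 and 1 in wild-type/floxed embryos (2.19% and 2.04%). Against the floxed/deleted pool alone, 12 were higher and 12 lower in knockout embryos (14.2% and 14.9%), with medians of 0.16 for CCT, 0.20 for ER stress inducible and 0.27 for mitochondrial members. Against the wild-type/floxed pool alone, 9 were higher and 7 lower (13.9% and 13.9%), with medians of -0.0928 for heat inducible, -0.13 for ER stress inducible, 0.13 for cytosolic and 0.21 for ER members. With the mean over probe sets, 2 were higher in knockout embryos (5.32%), 3 higher and 1 lower in floxed/deleted embryos (6.29% and 3.64%) and 2 higher in wild-type/floxed embryos (5.27%), and the constitutive median was 0.20. Without probe sets of a shared suffix, 63 members were left, with 2 higher in knockout embryos (6.25%), and 3 higher and 1 lower in wild-type/floxed embryos (6.12% and 5.25%), and medians of 0.21 for constitutive and 0.40 for CCT members. The cause of these changes was not tested. The log2 difference between the floxed/deleted pool and the wild-type/floxed pool was -0.99 to -0.85 for Hsp90aa1 and -0.82 to -0.70 for Hspa5 over the alternatives. The median of all genes was -0.02 with trimmed means, 0.06 with equal medians and -0.02 with quantile normalization.

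No paired analysis was possible because each genotype had 1 pool and 1 array per design. The spread between pools of a genotype is unknown, so differences of a pool and of its genotype cannot be told apart. Signals near the floor have no reliable order, and most members that stood apart were read on designs B and C, where all genes spread more widely.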

Other observations

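Dnajc19, a J protein of the mitochondrial inner membrane, was left out of the members because its probe sets are annotated to both the gene and a pseudogene copy. On design A, 1 such probe set read 83.7 in knockout embryos, 121 in floxed/deleted embryos and 137 in wild-type/floxed embryos, all above the floor. Another on design A read 74.5 in knockout embryos, which alone was above the floor, 33.9 in floxed/deleted embryos and 40.6 in wild-type/floxed embryos. The one on design C was below the floor in every pool.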
